A study of Mus musculus with 8 samples.

Results

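The genes described here are 36 genes of fatty acid burning and its control by peroxisome proliferator-activated receptors (PPARs), measured in mouse colonic tumors. They were listed by name for their known functions, and 34 of the 36 were measured among the 19938 genes tested. Acsl1 and Acsl3, which encode long-chain acyl-CoA synthetases, were not analysed, since no probe set is listed for Acsl1 under a single symbol and the probe set of Acsl3 carries several. Expression was read from 8 tumors, each on 1 Affymetrix array, in 3 groups. The serrated group held 3 tumors of the proximal colon from mice labelled K-rasG12Dint that also lacked Ink4a/Arf (Ink4a/Arf-/-), with no azoxymethane named. The K-rasG12D AOM group held 3 tumors of the distal colon from K-rasG12Dint mice, induced with the carcinogen azoxymethane (AOM). The LSL AOM group held 2 AOM-induced distal tumors labelled LSL-K-rasG12D/+, the allele kept silent by a stop cassette until Cre recombinase removes it. In the "int" strain Cre is known to act in the intestinal epithelium under the villin promoter, which the labels do not state. The mice's ages are not given, and no normal colon was among the samples.

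Tumor type, carcinogen, colon segment and the Ink4a/Arf deletion all changed together between the serrated and the AOM groups, so their effects cannot be told apart. The deposited values are log2 levels, and a difference of 1 is a doubling. A value belongs to its own probe set, so levels are compared between arrays and never between genes. Array medians over all genes lay between 4.17 and 4.31. The first serrated array stood apart in the spread of its values, with an SD of 1.77 across genes, while the SDs of the remaining 7 arrays ran between 2.00 and 2.13. Differences that moved by over 1.5 times without that array are given both ways. Separate animals are not named in the labels, so the tests measure the spread between these samples, which may be technical. Errors beside a difference are standard errors (SE) and errors beside a level are standard deviations (SD).

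Fatty acids are activated to acyl-CoA esters, carried into mitochondria on carnitine and shortened there by a repeating cycle of acyl-CoA dehydrogenase, hydratase, hydroxyacyl dehydrogenase and thiolase. Very long and branched chains start in peroxisomes, and surplus acetyl-CoA can leave as ketone bodies. PPARα and PPARγ are fatty acid-sensing nuclear receptors that pair with retinoid X receptors, and PGC-1α and PGC-1β are coactivators that work with them. In the colon the mature surface epithelium burns short-chain fatty acids made by bacteria.

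In serrated tumors, set against all 5 AOM tumors, the receptors Ppara and Pparg, the coactivator Ppargc1b, the carnitine carrier Slc25a20, the thiolase Acaa2 and the lipid droplet gene Cidec were higher. The differences ran from 0.88 ± 0.14 for Ppargc1b to 2.10 ± 0.23 for Cidec (log2 ± SE), folds of 1.84 and 4.28. Thus 6 of the 34 measured genes were higher at an adjusted p under 0.05 (limma, Benjamini-Hochberg over all genes), where 3.62% of all genes were called higher. No member was called lower, where 5.76% of all genes were, and 28 did not pass. At an unadjusted p under 0.05 the counts were 10 higher and 1 lower, against 9.57% and 15.2% of all genes. All 3 serrated arrays lay above all 5 AOM arrays in 8 members, where 7.24% of all genes did so, and below them in 2 members, Ppargc1a and Eci1, where 8.93% did. The difference was above 0 in 28 members, as it was in 54.8% of all genes, and the median difference was 0.35 over the members and 0.04 over all genes. The members were chosen with results of these tumors known, and these counts describe the list without testing it.

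The count of members called higher moved with single arrays and with the normalization. It was 11 without the first serrated array, when Bdh1, Cpt1a, Cpt2, Echs1 and Ehhadh were added. With all 8 arrays it was 9 under quantile normalization, which added Bdh1, Cpt1a, Echs1 and Etfb and lost Ppara, and 16 with array weights. It was 4 without the second serrated or the first LSL AOM array and 5 without any other one. Pparg, Ppargc1b, Slc25a20 and Cidec passed in every one of these fits, while Ppara and Acaa2 did not. Calls over all genes, in either direction, moved in these fits too. They numbered 1871 with all 8 arrays, 2090 without the first serrated array, 643 without the second and 3874 without the third. Quantile normalization gave 2448 and array weights 5759. Because whole tumors were measured, a lower level can mean fewer cells of a type or less RNA per cell, which cannot be told apart.

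**Figure D1:**
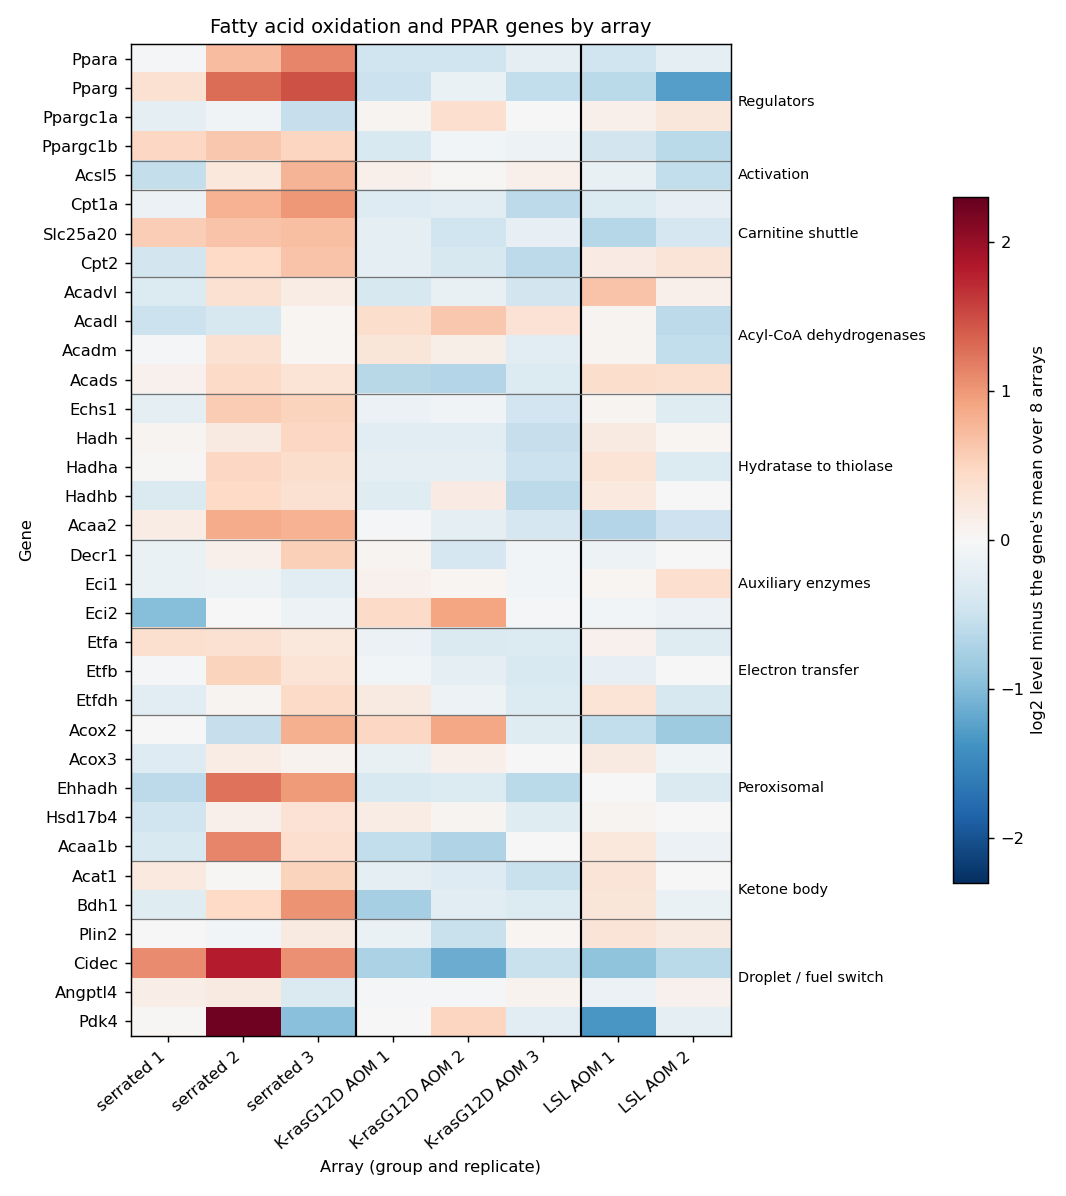
Log2 level of each of the 34 measured genes (rows, ordered by role) on each array (columns, serrated left, then K-rasG12D AOM, then LSL AOM), as the difference from that gene's mean over the 8 arrays. Cidec is above its mean on all 3 serrated arrays and below it on all 5 AOM arrays, and the first serrated array is paler than the other serrated arrays in most rows.

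**Figure D2:**
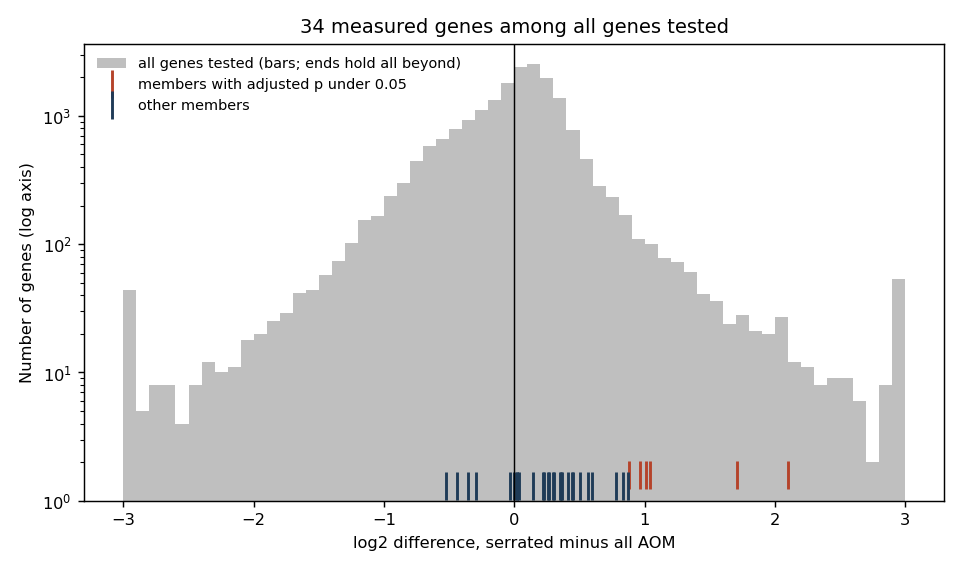
Histogram of the log2 differences of all 19938 genes between serrated and all AOM tumors (grey bars, log count axis, with the end bars holding everything beyond 3), with a tick for each of the 34 measured genes, red for the 6 with an adjusted p under 0.05. The ticks run from -0.53 for Eci2 to 2.10 for Cidec.

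Of the 4 regulators, 3 were higher in serrated tumors and Ppargc1a did not pass. Pparg, the receptor that drives fat storage genes and is also a receptor of the colonic epithelium, read 7.51, 8.44 and 8.63 in serrated tumors, against 6.67, 7.003 and 6.59 in K-rasG12D AOM tumors and 6.54 and 5.90 in LSL AOM tumors. Every serrated tumor exceeded every AOM tumor, although the first serrated tumor lay well below the other serrated tumors. The difference was 1.71 ± 0.28 (adjusted p = 0.00796), a fold of 3.27. Ppargc1b, which encodes the coactivator PGC-1β, read 5.42, 5.57 and 5.45 in serrated tumors, against 4.60, 4.88 and 4.84 in K-rasG12D AOM tumors and 4.52 and 4.33 in LSL AOM tumors. Its serrated values spanned only 0.15, and no AOM tumor reached them. The difference was 0.88 ± 0.14 (adjusted p = 0.00771).

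Ppara, the receptor best known for switching on fatty acid burning in liver, read 3.29, 4.01 and 4.43 in serrated tumors, against 2.85, 2.86 and 3.08 in K-rasG12D AOM tumors and 2.86 and 3.08 in LSL AOM tumors. All serrated tumors were above all AOM tumors, but the first by only 0.20, and every AOM value was below its array's median. The difference of 0.96 ± 0.25 passed narrowly (adjusted p = 0.0432), and the call was lost when any array other than the first serrated one was left out, with adjusted p-values between 0.0555 and 0.159. It was also lost under quantile normalization (adjusted p = 0.111). Ppargc1a, which encodes PGC-1α, the coactivator of mitochondrial biogenesis, ran the other way from Ppargc1b. It read 4.72, 4.84 and 4.39 in serrated tumors, against 4.99, 5.31 and 4.90 in K-rasG12D AOM tumors and 5.04 and 5.18 in LSL AOM tumors. No serrated tumor reached an AOM tumor, yet the difference of -0.44 ± 0.17 did not pass (adjusted p = 0.146). A second, dimmer Ppargc1a probe set read 3.33, 3.02 and 2.57 in serrated tumors, against 3.56, 4.49 and 3.33 in K-rasG12D AOM tumors and 3.24 and 3.13 in LSL AOM tumors. There the groups overlapped through the first serrated tumor.

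**Figure D3:**
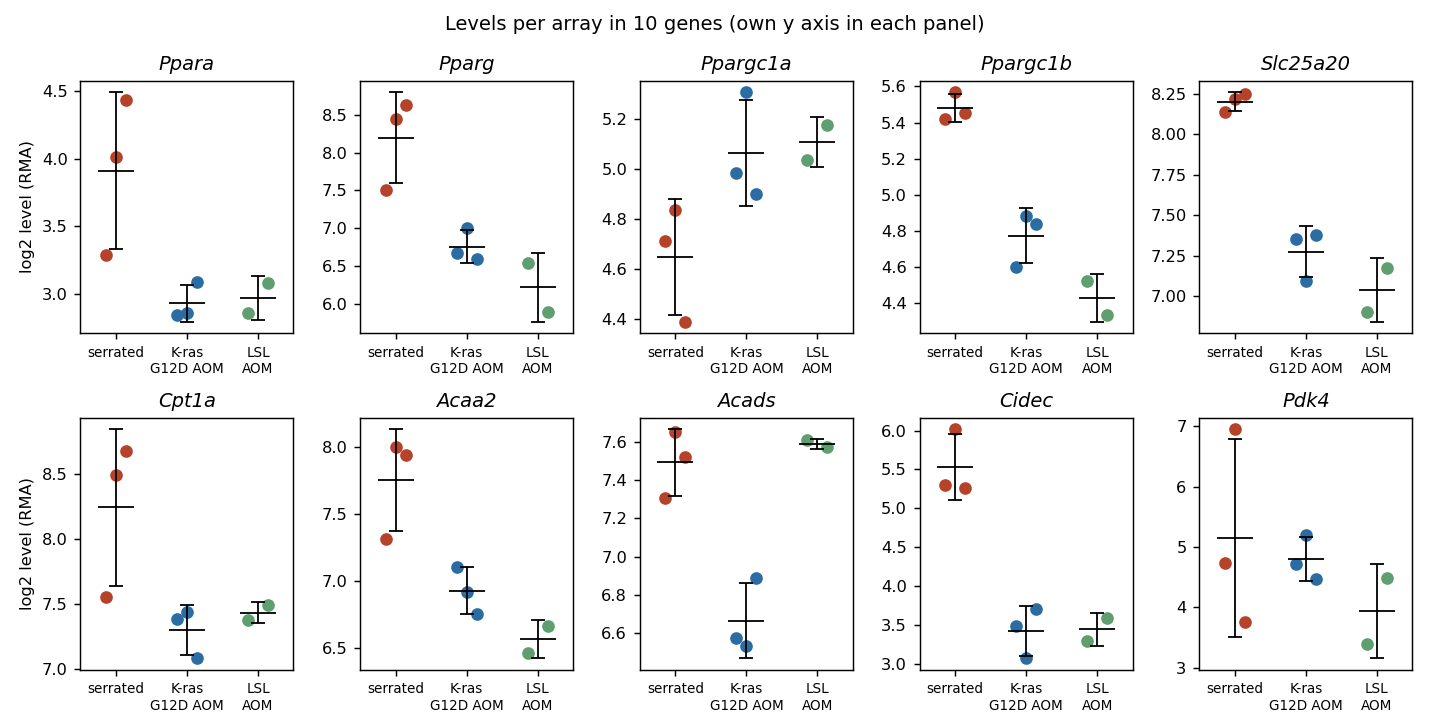
Log2 level on each array (points) with the group mean and SD (bars) for 10 of the genes, serrated left, then K-rasG12D AOM, then LSL AOM, each panel on its own axis. Serrated points lie above all AOM points for Ppara, Pparg, Ppargc1b, Slc25a20, Cpt1a, Acaa2 and Cidec, and below them for Ppargc1a. Acads separates the K-rasG12D AOM tumors from both other groups, and Pdk4 overlaps throughout.

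The first committed steps, activation and the carnitine shuttle, had 1 call among 4 measured genes. Slc25a20 encodes the carnitine-acylcarnitine translocase, the carrier that brings acylcarnitine across the inner mitochondrial membrane. It read 8.14, 8.22 and 8.25 in serrated tumors, against 7.35, 7.09 and 7.38 in K-rasG12D AOM tumors and 6.90 and 7.17 in LSL AOM tumors. This was the tightest serrated group of all members, spanning 0.11, and it stood clear of every AOM tumor. The difference was 1.04 ± 0.15, a 2.06-fold excess (adjusted p = 0.00414). Cpt1a, the rate-limiting enzyme that makes acylcarnitines on the outer membrane, read 7.56, 8.50 and 8.68 in serrated tumors, against 7.39, 7.44 and 7.08 in K-rasG12D AOM tumors and 7.38 and 7.49 in LSL AOM tumors. The groups did not overlap, but the first serrated tumor sat only 0.06 above the highest AOM tumor. The difference of 0.88 ± 0.25 did not pass (adjusted p = 0.0663), and it passed without the first serrated array (adjusted p = 0.00268). With all 8 arrays it also passed under quantile normalization (adjusted p = 0.00826), with the dimmest 40% of genes left out (adjusted p = 0.0474) and with array weights (adjusted p = 0.00119).

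Cpt2, which hands the fatty acid back to CoA inside the mitochondrion, read 5.97, 6.85 and 7.05 in serrated tumors, against 6.18, 6.03 and 5.79 in K-rasG12D AOM tumors and 6.57 and 6.70 in LSL AOM tumors. The second and the third serrated tumors were the highest and the first was the second lowest of all 8. The difference was 0.31 ± 0.25 (adjusted p = 0.474), and 0.63 ± 0.16 without the first serrated array (adjusted p = 0.0422). Acsl5, the acyl-CoA synthetase abundant in intestine, had serrated values of 7.46, 8.26 and 8.80, against an AOM range of 7.45 to 8.13, so that the first serrated tumor sat at the bottom of that range and the others above it. Its difference was 0.30 ± 0.28 (adjusted p = 0.533), and 0.66 ± 0.19 without the first serrated array (adjusted p = 0.0696).

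PPAR and retinoid X receptor pairs bind a direct repeat of the letters AGGTCA with 1 base between the copies, spelled AGGTCANAGGTCA, and the RefSeq promoters of the members were searched for it on both strands. The windows ran from 250 bases before to 50 bases after each gene's start in build GRCm38.p6, and 28 of the measured members had at least 1. A match with at most 2 of the fixed letters changed lay in 5 members, or 17.9%, against 4.4% of the 27025 genes with a window. Those 27025 include genes not measured here, so the sets are not like for like, and the difference was not tested. None of the members had a match with at most 1 change, against 0.644% of all genes. The 5 matches are shown to let their letters be compared, read along the motif, with letters that equal the motif in capitals.
Slc25a20: AGGTgAaAGGTCg
Etfa: AGGgCAaAGGTaA
Echs1: AGGTCAcgGGTCc
Plin2: AGGTCAggGGTCc
Acox2: AGGaCAgAGGTgA
Of these 5 genes, Slc25a20 alone was called higher in serrated tumors. Its promoter is shown because it carries a match and its gene had the narrowest serrated range, and the promoter of Cidec because that gene had the largest difference. Both run 5′ to 3′ along the gene's strand, from 250 bases before the start to 30 bases after it, with the best match in capitals. The Slc25a20 window is chr9:108661886-108662165 on the + strand, and its match begins 7 bases into the gene.
Slc25a20: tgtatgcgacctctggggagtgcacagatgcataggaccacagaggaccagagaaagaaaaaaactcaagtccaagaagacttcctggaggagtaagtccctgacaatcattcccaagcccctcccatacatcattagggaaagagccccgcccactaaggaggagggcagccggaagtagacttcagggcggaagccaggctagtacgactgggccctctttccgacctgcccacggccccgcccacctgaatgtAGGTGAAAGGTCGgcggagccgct
The printed Cidec window is chr6:113435731-113436010 on the - strand. Its best match begins at position -214 from the start, lies on the opposite strand and differs from the motif at 3 fixed letters. A second Cidec window, chr6:113434735-113435014, is not printed. There the best match begins at position -27 and differs at 4 fixed letters.
Cidec: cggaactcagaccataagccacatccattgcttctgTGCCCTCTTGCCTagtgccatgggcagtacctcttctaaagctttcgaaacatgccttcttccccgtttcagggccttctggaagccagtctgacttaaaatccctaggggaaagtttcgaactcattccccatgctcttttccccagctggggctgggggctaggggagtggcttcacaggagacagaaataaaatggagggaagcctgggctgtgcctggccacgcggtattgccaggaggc
These matches are descriptions of the letters in these windows, and no binding was measured.

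The acyl-CoA dehydrogenases take the first oxidation step, each for a range of chain lengths, and none of the 4 passed. Acads, for short chains, read 7.31, 7.65 and 7.52 in serrated tumors, against 6.57, 6.53 and 6.89 in K-rasG12D AOM tumors and 7.61 and 7.57 in LSL AOM tumors. Serrated and LSL AOM tumors overlapped, and the K-rasG12D AOM tumors lay below both. Against all AOM tumors the difference was 0.37 ± 0.16 (adjusted p = 0.186). Acadl, for long chains, read 7.75, 7.87 and 8.28 in serrated tumors, against 8.63, 8.86 and 8.56 in K-rasG12D AOM tumors and 8.29 and 7.64 in LSL AOM tumors. Here the K-rasG12D AOM tumors were the highest group. The difference from all AOM tumors was -0.36 ± 0.20 (adjusted p = 0.315). Acadvl, for very long chains, differed by 0.04 ± 0.20 and Acadm, for medium chains, by 0.22 ± 0.21, both with overlapping groups (adjusted p = 0.923 and 0.540).

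Among the enzymes that finish the mitochondrial cycle, 1 of 5 was higher. That was Acaa2, the thiolase that cuts off acetyl-CoA, which read 7.32, 8.005 and 7.94 in serrated tumors, against 7.11, 6.92 and 6.76 in K-rasG12D AOM tumors and 6.46 and 6.67 in LSL AOM tumors. All serrated tumors exceeded all AOM tumors, the first by 0.21. The difference was 1.01 ± 0.20, or 2.01-fold (adjusted p = 0.0162). The call was lost without the second serrated array (adjusted p = 0.0840) or without the first LSL AOM array (adjusted p = 0.0652). Hadha and Hadhb, the subunits of the trifunctional protein that handles long chains, differed by 0.45 ± 0.20 and 0.23 ± 0.24 (adjusted p = 0.202 and 0.591). Both Hadhb probe sets placed the second and the third serrated tumors highest and the third K-rasG12D AOM tumor lowest. Echs1, the short-chain enoyl-CoA hydratase, and Hadh, the short-chain hydroxyacyl-CoA dehydrogenase, differed by 0.45 ± 0.22 and 0.36 ± 0.16 (adjusted p = 0.239 and 0.209). All 4 of these differences were above 0 and none passed. Without the first serrated array Echs1 passed, at 0.71 ± 0.17 (adjusted p = 0.0340).

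The auxiliary enzymes prepare unsaturated fatty acids for the cycle, and here 2 of 3 differences were below 0. Eci1, an enoyl-CoA isomerase, read 6.29, 6.34 and 6.19 in serrated tumors, against 6.54, 6.49 and 6.39 in K-rasG12D AOM tumors and 6.50 and 6.83 in LSL AOM tumors. Every serrated tumor was below every AOM tumor, by a narrow margin. The difference of -0.30 ± 0.14 did not pass (adjusted p = 0.237). Eci2, a further isomerase, differed by -0.53 ± 0.28 (adjusted p = 0.288), the lowest value among the members, and its groups overlapped. Decr1, the dienoyl-CoA reductase, differed by 0.26 ± 0.19 (adjusted p = 0.437).

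Electrons from the dehydrogenases pass through the flavoprotein subunits Etfa and Etfb to Etfdh and on to the respiratory chain. Etfa read 7.89, 7.87 and 7.77 in serrated tumors, against 7.38, 7.19 and 7.20 in K-rasG12D AOM tumors and 7.62 and 7.25 in LSL AOM tumors. The serrated tumors were all above the AOM tumors and differed among themselves by only 0.12. Its difference of 0.50 ± 0.15 nevertheless missed the threshold (adjusted p = 0.0699). Etfb differed by 0.41 ± 0.17 and Etfdh by 0.14 ± 0.23 (adjusted p = 0.173 and 0.730). Over the 18 mitochondrial members from the shuttle to electron transfer, 2 were called higher, 0 lower by limma, and 16 did not pass. Of all genes, 3.62% were called higher and 5.76% lower. The median difference was 0.33 over these 18 members and 0.04 over all genes.

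**Figure D4:**
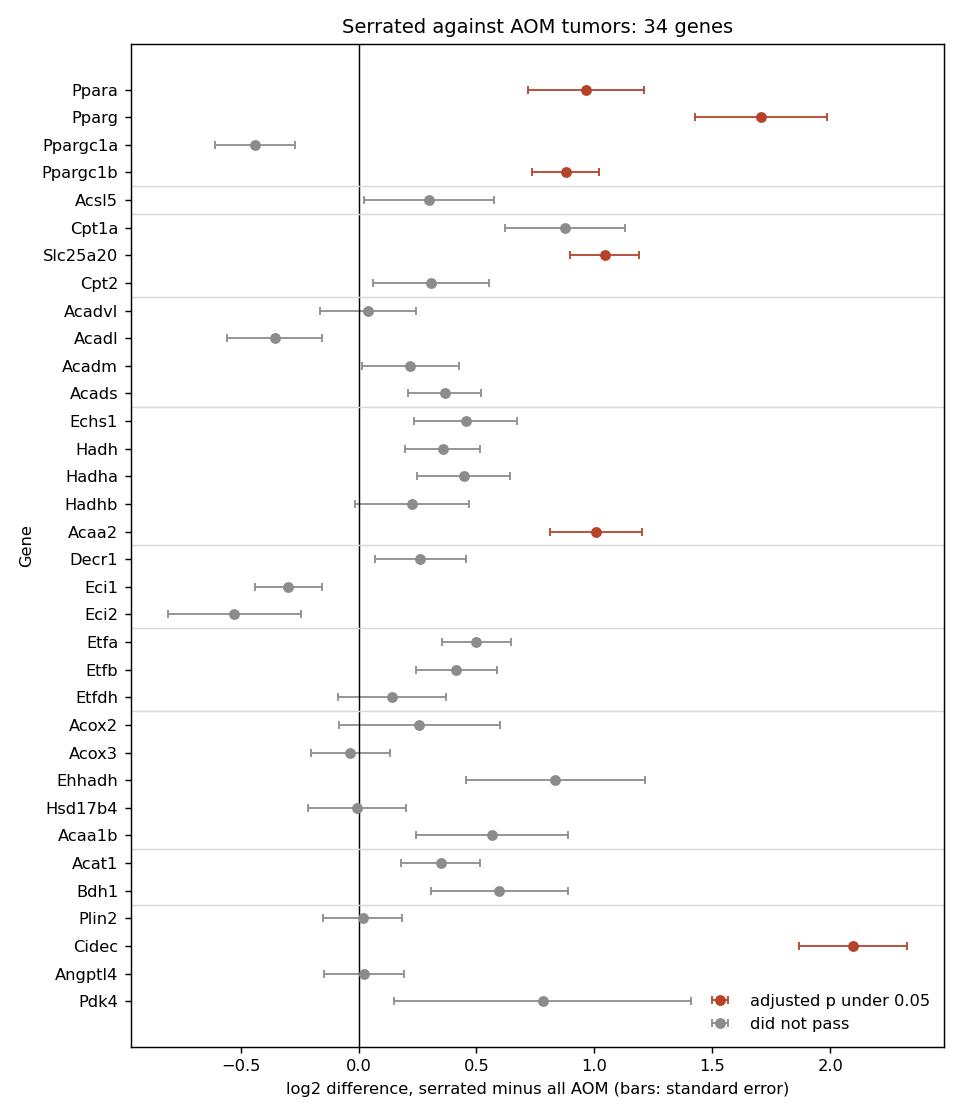
Log2 difference of each of the 34 measured genes between serrated and all AOM tumors (points) with its standard error (bars), in role order from the regulators at the top. The 6 genes in red passed an adjusted p of 0.05, all to the right of 0, and Ppargc1a, Acadl, Eci1 and Eci2 lie clearly to the left without passing.

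None of the 5 peroxisomal members passed. Ehhadh, the bifunctional enzyme of the peroxisomal cycle and a PPARα target, read 4.32, 6.16 and 5.89 in serrated tumors, against 4.57, 4.60 and 4.29 in K-rasG12D AOM tumors and 4.93 and 4.58 in LSL AOM tumors. The second and the third serrated tumors stood above every AOM tumor while the first was the second lowest of all 8. The difference was 0.83 ± 0.38 (adjusted p = 0.214), and 1.40 ± 0.17 without the first serrated array, where it passed (adjusted p = 0.00222). Acaa1b, a peroxisomal thiolase, had serrated values of 3.13, 4.59 and 3.86, against an AOM range of 2.78 to 3.72, and differed by 0.56 ± 0.32 (adjusted p = 0.315). Hsd17b4, the D-bifunctional protein, and Acox3, a branched-chain acyl-CoA oxidase, differed by -0.01 ± 0.21 and -0.03 ± 0.17. Their 95% confidence intervals, -0.48 to 0.47 and -0.42 to 0.35, do not reach a doubling or a halving. Acox2, the oxidase that takes part in shortening bile acid precursors, differed by 0.26 ± 0.34 with an interval of -0.52 to 1.03.

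Neither measured ketone body enzyme passed. Bdh1, the dehydrogenase that interconverts acetoacetate and 3-hydroxybutyrate, read 6.28, 7.02 and 7.60 in serrated tumors, against 5.81, 6.31 and 6.24 in K-rasG12D AOM tumors and 6.84 and 6.40 in LSL AOM tumors. The second and the third serrated tumors were the highest of all 8, and the first fell inside the AOM range. The difference was 0.60 ± 0.29, with an interval of -0.06 to 1.25 (adjusted p = 0.243), and it passed without the first serrated array (adjusted p = 0.0382). With all 8 arrays it also passed under quantile normalization (adjusted p = 0.0414) and with array weights (adjusted p = 0.0250). Acat1, the mitochondrial thiolase that works in ketone body making and use, read 7.24, 7.04 and 7.53 in serrated tumors, against 6.80, 6.72 and 6.51 in K-rasG12D AOM tumors and 7.31 and 7.02 in LSL AOM tumors. Serrated and LSL AOM values overlapped, and the K-rasG12D AOM tumors were lowest. The difference was 0.35 ± 0.17 (adjusted p = 0.239).

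Among the PPAR targets of lipid droplets and fuel choice, 1 of 4 was higher. Cidec encodes a protein that helps lipid droplets fuse and grow. It read 5.30, 6.02 and 5.26 in serrated tumors, against 3.49, 3.07 and 3.70 in K-rasG12D AOM tumors and 3.29 and 3.59 in LSL AOM tumors. The lowest serrated tumor was 1.56 above the highest AOM tumor, and the AOM values were below their arrays' medians. The difference of 2.10 ± 0.23, 4.28-fold, was the largest of all members (adjusted p = 0.00135). It passed in all 14 alternative fits of this comparison, with adjusted p-values up to 0.00923.

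The other droplet and fuel genes did not follow Cidec. Plin2, the general droplet coat protein, read 8.06, 8.01 and 8.29 in serrated tumors, against 7.92, 7.57 and 8.12 in K-rasG12D AOM tumors and 8.38 and 8.28 in LSL AOM tumors. The groups overlapped, and the difference was 0.02 ± 0.17 with an interval of -0.36 to 0.40. Angptl4, a secreted lipoprotein lipase inhibitor and a common PPAR target, was below the array median on all 8 arrays, with serrated values of 3.54, 3.59 and 3.05 against AOM values of 3.24 to 3.48. Its difference was 0.02 ± 0.17 (adjusted p = 0.945). Pdk4, the kinase that shuts off glucose oxidation when fat is burned, read 4.74, 6.95 and 3.76 in serrated tumors, against 4.72, 5.20 and 4.47 in K-rasG12D AOM tumors and 3.38 and 4.49 in LSL AOM tumors. The second serrated tumor was the highest of all 8 and the third the second lowest, a range of 3.19 within that group. The difference of 0.78 ± 0.63 rested on the second serrated tumor and was -0.12 without it (adjusted p = 0.888).

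The comparisons of serrated tumors with each AOM group share the serrated arrays, and their values are set side by side. Against K-rasG12D AOM tumors, which carry the same K-rasG12Dint label, 5 members were higher and 0 lower by limma, where 2.46% and 3.99% of all genes were called. They were Pparg (1.44 ± 0.31, adjusted p = 0.0301), Ppargc1b (0.71 ± 0.16, adjusted p = 0.0346), Slc25a20 (0.92 ± 0.16, adjusted p = 0.0142), Acads (0.83 ± 0.17, adjusted p = 0.0267) and Cidec (2.11 ± 0.26, adjusted p = 0.00325). At an unadjusted p under 0.05, 16 members were higher and 2, Acadl and Eci2, lower, against 7.84% and 13.9% of all genes. Arrays did not overlap upward in 13 members and downward in 3, where 12.0% and 13.9% of all genes did. Acaa2 (0.83 ± 0.22, adjusted p = 0.0587) and Ppara (0.98 ± 0.27, adjusted p = 0.0682) came close to the threshold. The median difference was 0.49 over the members and 0.05 over all genes.

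These counts depended on the arrays used. Without the first serrated array 14 members were higher, without the second only Cidec was, and without the third serrated array Acadl was called lower. Only Cidec was called higher without the first or without the second K-rasG12D AOM array. Without the third K-rasG12D AOM array, or either LSL AOM array, 3 were. The LSL AOM arrays enter here only through the spread shared by the groups. Over all genes, 1286 were called in either direction with all arrays. Without the first, the second and the third serrated array, 1655, 418 and 3186 were. Without the first, the second and the third K-rasG12D AOM array, 501, 390 and 766 were. Cidec kept its call in all 15 alternative fits of this comparison.

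Against LSL AOM tumors, 5 members were again higher and 0 lower by limma, where 2.31% and 3.4% of all genes were called. These were Pparg (1.98 ± 0.35, adjusted p = 0.0162), Ppargc1b (1.05 ± 0.18, adjusted p = 0.0135), Slc25a20 (1.16 ± 0.18, adjusted p = 0.0105), Acaa2 (1.19 ± 0.24, adjusted p = 0.0272) and Cidec (2.08 ± 0.29, adjusted p = 0.00603). At an unadjusted p under 0.05, 7 members were higher and 0 lower, against 8.15% and 12.1% of all genes. Arrays did not overlap upward in 9 members and downward in 2, where 15.6% and 17.4% of all genes did. With 2 LSL AOM tumors the counts leaned on each of them. No member passed without the first (Cidec, adjusted p = 0.0709) and only Cidec passed without the second. Calls over all genes, in either direction, fell in both of these fits too. Members had 8 calls without the first serrated array, 2 without the second and 5 without the third. All genes had 1785, 391 and 2530 there, against 1138 with all arrays. Members had 4 without the first or the second K-rasG12D AOM array and 5 without the third. All genes had 643, 759 and 754 in those fits.

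The AOM groups were both induced distal tumors and differed in the genotype label, K-rasG12Dint against LSL-K-rasG12D/+. K-rasG12D AOM and LSL AOM tumors differed in 0 members by limma, and in 0.0% of all genes at an adjusted p under 0.05. At an unadjusted p under 0.05, Acadl and Acox2 were higher and Acadvl, Acads, Hadh and Acat1 were lower in K-rasG12D AOM tumors. Unadjusted calls were made in 8.36% of all genes, 4.35% higher and 4.0% lower. The lowest adjusted p was that of Acads, at 0.269 for a difference of -0.93 ± 0.19, and no K-rasG12D AOM tumor reached an LSL AOM tumor in that gene. The other acyl-CoA dehydrogenases were uneven, with 0.72 ± 0.25 for Acadl, 0.30 ± 0.26 for Acadm and -0.71 ± 0.25 for Acadvl (adjusted p = 0.460, 0.896 and 0.471). Arrays did not overlap upward in 7 members and downward in 7, where 16.4% and 15.7% of all genes did. The 6 genes raised in serrated tumors differed here by between -0.04 for Ppara and 0.54 for Pparg, and none passed. Of all genes, 58 were called with array weights and 4 when only these 5 arrays were fitted, none of them members.

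Within the serrated group the members were uneven. The first serrated tumor was the lowest of the 3 in 25 of the 34 members, as it was in 40.7% of all genes. The exceptions were Ppargc1a, Eci1, Etfa, Acox2, Acat1, Plin2, Cidec, Angptl4 and Pdk4. Its array had the highest lower quartile and the lowest upper quartile of all 8 arrays. The share of all genes includes dim genes, while Angptl4 alone among the members was below the median on every array. These shares are therefore not like for like. The general mitochondrial list counted below was also lowest on that array, at a mean of 7.65 against 7.87 to 8.24 on the others. Whether the low member values came from the array or the tumor was not tested. Averaged over all members, and taken from each gene's mean over the 8 arrays, the serrated tumors stood at -0.08, 0.47 and 0.41, against -0.14, -0.11 and -0.27 in K-rasG12D AOM tumors and -0.08 and -0.20 in LSL AOM tumors. The first serrated tumor was thus close to the AOM tumors in this average. Without its array the difference from all AOM tumors was 0.93 for Acaa1b, 0.47 for Hadhb, 0.43 for Decr1, 0.31 for Etfdh, 0.23 for Acadvl and -0.22 for Eci2. Plin2 was then at 0.05, and the small differences of Hsd17b4, Acox3 and Angptl4 changed sign, to 0.22, 0.11 and -0.05. None of these genes passed with or without it. Bdh1 stood at 0.94 without it. In 10 members the serrated range was above 1, with the largest ranges in Pdk4 (3.19), Ehhadh (1.84) and Acaa1b (1.47). Slc25a20, Etfa, Ppargc1b and Eci1 spanned 0.11 to 0.15. The median serrated range was 0.69 over members and 0.60 over all genes.

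Further genes of these pathways were counted from 6 lists of 89 genes, of which 83 were measured. In serrated tumors, set against all AOM tumors, 10 were higher, 4 were lower and 69 did not pass, with a median difference of 0.24. Of all genes, 3.62% were called higher and 5.76% lower, and the lower count of these lists is near that share. Those lists were also chosen with results of these tumors known. Of the 27 genes of further PPAR targets and lipid storage, 5 were higher and 22 did not pass. These were Creb3l3, a membrane-bound transcription factor that works with PPARα in liver (2.31 ± 0.26), Mgll, the monoglyceride lipase (1.76 ± 0.23), Dgat2, the last enzyme of triglyceride making (1.68 ± 0.17), Cideb, a droplet protein related to Cidec (1.53 ± 0.31) and Txnip (1.21 ± 0.27), which restrains glucose uptake. Their adjusted p-values were 0.00164, 0.00329, 0.00112, 0.0181 and 0.0280. The serrated tumors were above all AOM tumors in each of these 5.

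Among activation and uptake genes, Acot12, an acetyl-CoA thioesterase, read 6.16, 5.76 and 5.90 in serrated tumors, against 3.78, 3.02 and 3.49 in K-rasG12D AOM tumors and 3.11 and 3.52 in LSL AOM tumors. The difference was 2.57 ± 0.21 (adjusted p = 0.000472). The fatty acid transporter Slc27a1 (-1.20 ± 0.18, adjusted p = 0.00498) and the acyl-CoA synthetase Acsl4 (-1.36 ± 0.32, adjusted p = 0.0333) were lower, and the other 11 genes of that list did not pass. The nuclear receptor list had Rxra, the PPAR partner, higher (0.66 ± 0.17, adjusted p = 0.0454) and Pprc1, the third coactivator of the PGC-1 family, lower (-0.64 ± 0.17, adjusted p = 0.0485), with 8 not passing. With all 8 arrays Pprc1 did not pass under quantile normalization, median centring or limma trend (adjusted p = 0.0536, 0.0678 and 0.0722). Rxra did not pass under limma trend (adjusted p = 0.0652). Ppard, the remaining PPAR, differed by 0.62 ± 0.17 (adjusted p = 0.0565). One gene was higher in each of 3 lists, the dehydrogenase Acad11 of mitochondrial oxidation (1.11 ± 0.23, adjusted p = 0.0197), Pex11a of peroxisome division (0.84 ± 0.18, adjusted p = 0.0226) and Slc16a1, a transporter of lactate, ketone bodies and short-chain acids (1.04 ± 0.26, adjusted p = 0.0403). Scp2, a peroxisomal lipid carrier and thiolase, was lower (-1.88 ± 0.38, adjusted p = 0.0180). Of these 14 calls, Slc27a1, Acot12, Mgll, Dgat2 and Creb3l3 passed in all 14 alternative fits. The other 9 were lost without the second serrated array, with adjusted p-values up to 0.185, and the same 9 without the second LSL AOM array. Between 5 and 6 were lost without each of the other AOM arrays, Pprc1 without the first serrated array and Slc16a1 without the third.

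A general mitochondrial list was counted in the same way. Of 21 measured genes of the citric acid cycle, the outer membrane channel and protein import, 0 were higher by limma and Idh3a, a subunit of isocitrate dehydrogenase, was lower (-1.14 ± 0.22, adjusted p = 0.0144), where 3.62% of all genes were called higher and 5.76% lower. Across the alternative fits of this list, 0 or 1 gene was higher and 0 to 4 were lower. The median difference was 0.05, close to the 0.04 of all genes and below the 0.33 of the 18 mitochondrial oxidation members, and the difference between these lists was not tested.

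Markers of other cell types moved between the same groups, where 3.62% of all genes were called higher and 5.76% lower. Small-intestinal enterocyte markers were higher in 6 of 8 genes, with mean levels per array of 5.89 to 6.83 in serrated tumors, against 3.09 to 3.56 in AOM tumors. The 6.83 of the first serrated tumor drew on Apoa4, which was not called and read 9.99, 5.07 and 4.08 in serrated tumors. Colonocyte markers were higher in 7 of 8 genes, at 8.91 to 9.49 in serrated tumors and 5.21 to 7.44 in AOM tumors. The colonocyte count ran from 1 to 8 over the alternative fits, and was 1 without the second serrated array, 4 without the first LSL AOM array and 2 without the second. Gastric markers were higher in 5 of 8 genes, at 5.96 to 8.87 in serrated tumors and 3.12 to 3.58 in AOM tumors, with the first serrated tumor lowest of the serrated group. Macrophage markers were lower in 5 of 9 genes, at 4.66 to 5.52 in serrated tumors and 5.80 to 6.43 in AOM tumors. Fibroblast markers were lower in 3 of 6 genes, with overlapping means of 6.43 to 7.57 in serrated tumors and 7.44 to 8.64 in AOM tumors. Over the alternative fits the macrophage count ran from 1 to 8 and the fibroblast count from 0 to 5. General epithelial markers were not called, at 10.40 to 10.75 in serrated tumors and 10.21 to 10.57 in AOM tumors, and none of the 6 was below its arrays' medians. The adipocyte markers Adipoq and Lep were below the lower quartile of every array, and 0 of 7 adipocyte markers were called by limma, at 3.33 to 3.61 in serrated tumors and 3.16 to 3.61 in AOM tumors. No smooth muscle, skeletal muscle or hepatocyte marker was called in this comparison. Smooth muscle markers averaged 6.39, 5.43 and 5.35 in serrated tumors, against 5.03 to 5.90 in AOM tumors, and hepatocyte markers 4.50, 3.93 and 3.69 in serrated tumors, against 3.33 to 3.86 in AOM tumors. Skeletal muscle markers averaged 3.60, 3.36 and 3.14 in serrated tumors and 3.13 to 3.45 in AOM tumors. The first serrated tumor, whose array had the narrowest spread and which was lowest of its group in 25 members, was highest of all 8 tumors in these 3 lists. In the hepatocyte list this rested on Apoa1, at 9.54, 6.58 and 4.03 in serrated tumors and 3.53 to 3.80 in AOM tumors. The first serrated tumor was not the highest in any other measured hepatocyte marker, and its Fgb, at 2.39, was the lowest of all 8. On adipocyte markers that tumor was also highest, at 3.613 against at most 3.609 in AOM tumors. In the skeletal muscle list 4 of 6 markers, and in the adipocyte list 4 of 7, were below the median on every array. Its array had the highest lower quartile, and whether these high means came from the array or the tumor was not tested. The part of these marker shifts in the differences of the fatty acid oxidation genes was not tested.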

How the data were processed

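The deposited table held log2 values for 35557 probe sets, made by the authors with GCOS and RMA (robust multi-array averaging), as the submitters' processing notes name them, and their versions, settings and chip annotation are not given in the sources used here. RMA normalizes the arrays together, so values are relative between arrays. Values ran from 0.564 to 13.5, and no further transformation was applied. Of the probe sets, 21789 carried exactly 1 gene symbol in the platform annotation. For the 999 genes with several, the probe set with the highest mean was taken, which left 19938 genes.

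One limma fit (version 3.58.1, R 4.3.3) of 3 group means to all 8 arrays, with trend and robust off, gave 4 comparisons. The all-AOM mean weighs both AOM groups equally. P-values were adjusted by Benjamini-Hochberg over all genes, and an adjusted p under 0.05 was called. The fitting code was checked on simulated arrays with known changes. For arrays, their number limits the precision. Replicates were numbered in accession order within a group, which pairs nothing. Genotype labels set the groups.

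The genes named beyond the regulators, Cpt1a, the ketone body enzymes, Cidec and Pdk4 are the members called in a comparison, members whose groups did not overlap, and called genes of the further lists. Some others were named after their values were seen, to complete a role. The members and lists were chosen with earlier results of these data known. Alternatives were no dim genes (the dimmest 40% left out), quantile normalization, median centring, the mean of all probe sets, limma trend, array weights, only the groups compared, and leaving out each array. Protein sequences were not used here.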

Additional observations from a re-analysis of the deposited data

How the results depend on the processing

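The median difference of the members kept its sign in every comparison over the 7 alternative settings and the fits that left out 1 array. Its size depended on single arrays. Leaving out 1 array gave medians of 0.25 to 0.47 for serrated against all AOM tumors, 0.36 to 0.62 against K-rasG12D AOM tumors, 0.14 to 0.49 against LSL AOM tumors and -0.16 to -0.05 for K-rasG12D AOM against LSL AOM tumors. Against LSL AOM tumors it was 0.14 without the second LSL AOM array and 0.49 without the first, where all arrays gave 0.31. For the members called, leaving out 1 array gave 4 to 11 higher against all AOM tumors, 1 to 14 higher and 0 to 1 lower against K-rasG12D AOM tumors, and 0 to 8 higher against LSL AOM tumors. Array weights, estimated gene by gene, gave 16 higher against all AOM tumors, 20 higher and 1 (Acadl) lower against K-rasG12D AOM tumors, and 9 higher against LSL AOM tumors. Over all genes they called 5759 against all AOM tumors, where the fit in the text called 1871. Leaving out 1 array also moved the calls over all genes. Quantile normalization gave 9 higher against all AOM tumors, where the text gives 6, and 14 higher against K-rasG12D AOM tumors. Over all genes it called 2448 and 1949 in these comparisons. With only the groups compared, 3 members were higher against K-rasG12D AOM tumors and 1 against LSL AOM tumors, where fewer arrays set the spread; that setting does not apply to the comparison with all AOM tumors. Pdk4 changed sign, at -0.12 without the second serrated array, and was at most 1.48 when 1 array was left out, without the third. With array weights it was 2.13 and passed. Ppara was not tested where the dimmest 40% of genes were left out. The other causes were not tested. Leaving out an LSL AOM array leaves 1 array in that group, which is assumed to vary like the others. No paired analysis was possible because the labels give no replicate numbers shared by the groups.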
